A study of Mus musculus with 20 samples.

Results

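The 8 genes studied here make or control the making of fatty acids and were followed in liver and white adipose tissue (WAT) of mice with and without a working Rora gene: Acaca, Acacb, Fasn, Acly, Me1, Thrsp, Srebf1 and Mlxipl. They were found by the gene name in the array files, with every probe of a gene taken. This gave 14 probes for 7 genes. No probe carried the name Me1, and 2 probes named Mod1, which RefSeq lists as a synonym of Me1, were taken for it, so that all 8 listed genes had a probe and 16 of the 41174 different probes on the array were used. RNA was measured on 1-colour Agilent mouse arrays, 1 array per mouse and tissue. The 4 groups were sg/sg liver, wild-type (WT) liver, sg/sg WAT and WT WAT, with 5 arrays each. The sg/sg mice carry the staggerer allele on both copies of Rora, which encodes the receptor RORα; it is a natural deletion present in every cell of the body, and WT mice lack it. All were male C57BL/6 mice, 5 months old, on a diet with 35% fat for 6 weeks. The fat depot is not named in the labels, nor is it stated whether a liver array and a WAT array of the same number come from the same mouse. The design text gives 5 mice of each genotype, so p-values within a tissue measure the spread between mice. If 5 is the total, liver and WAT arrays come from the same mice, and only their matching is unknown.

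New fatty acids are built from acetyl-CoA in the cytosol, mainly by liver and fat. ATP citrate lyase (Acly) supplies the acetyl-CoA, acetyl-CoA carboxylases (Acaca and Acacb) turn it into malonyl-CoA, fatty acid synthase (Fasn) joins the units into palmitate, and malic enzyme (Me1) supplies NADPH for the reductions. Insulin and glucose switch these genes on together, through SREBP-1c, a product of Srebf1, and through ChREBP, the product of Mlxipl. Thrsp, also called Spot 14, is a small nuclear and cytosolic protein that follows lipogenesis and responds to thyroid hormone.

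The probes on which the results turn are short enough to be read whole. Thrsp had 1 probe, at chr7:93448487-93448546 on the minus strand of mouse build mm7. Acaca had 4 probes and Acacb 2, and some of them cross gaps in the genome. Acaca probe 3 spreads its 60 bases over 12416 bases of the plus strand (chr11:84350405-84362820) and Acaca probe 4 over 4001 bases (chr11:84411918-84415918), while Acacb probe 2 spans 4086 bases of the plus strand (chr5:113406086-113410171). These 4 probes are shown because Thrsp was called in both tissues, Acaca probe 3 and Acacb probe 2 were called in WAT, and Acaca probe 4 was called in liver. No annotation of mm7 was used here, so the exon under a probe is not stated.
Thrsp probe: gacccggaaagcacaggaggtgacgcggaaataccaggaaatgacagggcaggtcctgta
Acaca probe 3: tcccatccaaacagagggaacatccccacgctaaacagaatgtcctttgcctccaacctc
Acaca probe 4: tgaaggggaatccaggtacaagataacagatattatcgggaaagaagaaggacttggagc
Acacb probe 2: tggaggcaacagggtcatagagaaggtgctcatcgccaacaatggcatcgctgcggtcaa

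RefSeq (GRCm38.p6) gave 12 promoter windows for the 8 genes, each read here as the 250 bases before a start site. Both strands were searched for the E-box core CACGTG, which USF and ChREBP factors can bind, a sterol regulatory element written TCACNCCAC, the CCAAT box, the GC box GGGCGG and the nuclear receptor motif AGGTCA. Of the 12 windows, 7 held CCAAT, 5 GGGCGG, 1 AGGTCA, 1 CACGTG and 1 TCACNCCAC. Over all 32851 windows of the same length the shares were 33.8% for CCAAT, 32.7% for GGGCGG, 14% for AGGTCA, 6.02% for CACGTG and 1.05% for TCACNCCAC. The Thrsp window (chr7:97417551-97417800, minus strand) is printed because Thrsp moved in both tissues. It holds 2 CCAAT matches, at -79 to -75 on the opposite strand and at -52 to -48. The 2 windows of Mlxipl (window 1, chr5:135089640-135089889; window 2, chr5:135106641-135106890, both plus strand) are printed because they hold the only E-box core, at -98 to -93, and the only sterol element, at -136 to -128. Capitals mark every match to any of the 5 motifs, on either strand and allowing overlap. A match is a run of letters and was not tested for binding.
Thrsp window: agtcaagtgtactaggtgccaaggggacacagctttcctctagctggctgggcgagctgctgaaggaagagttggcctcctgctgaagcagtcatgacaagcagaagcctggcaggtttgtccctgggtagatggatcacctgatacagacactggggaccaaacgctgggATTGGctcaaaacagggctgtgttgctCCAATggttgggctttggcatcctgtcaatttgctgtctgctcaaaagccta
Mlxipl window 1: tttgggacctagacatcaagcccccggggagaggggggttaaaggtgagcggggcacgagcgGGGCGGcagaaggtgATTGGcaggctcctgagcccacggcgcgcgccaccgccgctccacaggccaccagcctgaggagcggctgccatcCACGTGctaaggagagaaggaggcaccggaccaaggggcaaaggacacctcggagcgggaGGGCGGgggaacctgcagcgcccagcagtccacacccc
Mlxipl window 2: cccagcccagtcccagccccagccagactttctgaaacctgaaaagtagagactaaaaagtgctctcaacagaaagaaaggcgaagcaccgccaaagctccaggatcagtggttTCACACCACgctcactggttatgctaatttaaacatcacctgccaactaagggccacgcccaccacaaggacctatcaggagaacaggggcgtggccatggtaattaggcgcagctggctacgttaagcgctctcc

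Array quality and the labels were checked first. All 3 probes of Rora separated the genotypes without overlap, lower in sg/sg, with log2 differences of -2.88 and -2.86 for probes 1 and 2 in liver, at least 2.14-fold for probe 3, which was not well above background on any sg/sg liver array, and -2.75 to -2.72 in WAT; their position relative to the deletion is not known here. Levels are log2 intensity relative to the 75th percentile of the same array, so a level of 1 is 2-fold above that percentile. The percentile itself lay between 646 and 898 in sg/sg liver, 818 and 1089 in WT liver, 1346 and 2054 in sg/sg WAT and 1936 and 2604 in WT WAT. The share of probes well above background was 57.1% to 63% in liver and 72.5% to 81.5% in WAT. The hepatocyte gene Alb was well above background on all 10 liver arrays, and the adipocyte gene Adipoq on all 10 WAT arrays. Replicate 4 of sg/sg WAT stood apart: 15.2% of its probes lay more than 2-fold from the mean of the other 4 sg/sg arrays, against 1.35% to 9.84% for the other WAT arrays, the highest of these being WT replicate 2. WAT results on the 8 genes are therefore given with and without it, and those of the other gene lists as counts without it. The arrays lay on 6 slides. Each of the 3 WAT slides held both genotypes. In liver, slide 1 held 4 WT arrays, slide 3 held 2 sg/sg arrays, and slide 2 alone held both, with 3 sg/sg arrays and 1 WT array, so that a liver difference within a slide rests on that 1 WT array.

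In WAT 6 of the 8 lipogenic genes had a probe that was higher in sg/sg mice, and in liver only Thrsp and 1 of the 4 Acaca probes passed the test, both lower. Of the 16 probes tested in WAT, 10 were higher in sg/sg mice and 0 lower (limma, adjusted p under 0.05), against 12.8% and 9.15% of all 32315 tested probes (21.9% in either direction). They covered Acaca, Acacb, Acly, Thrsp, Srebf1 and Mlxipl, and Fasn and Me1 did not pass. Acly counts here by its probe 2 alone, which was well above background on 5 of 5 sg/sg and 1 of 5 WT arrays and so entered the test through the group where it is high. Among the 15 probes well above background on all 10 WAT arrays, 9 were higher, where 24.7% of all 28628 such probes were called in either direction. The groups did not overlap for 11 of the 16 probes, with sg/sg above WT, against 12.1% of all probes, and for 0 with sg/sg below WT, against 8.68%. Without sg/sg replicate 4 these counts were 11, against 17.9%, and 2, against 12.6%. Over the 8 genes, each by its brightest probe, the median log2 difference in WAT was 1.23, against 0.09 over all genes. Without sg/sg replicate 4, 12 probes were higher, against 18.5% of all probes, 2 were lower, both of Me1, against 12.5%, and the median was 0.89.

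Of the 14 probes tested in liver, 2 were lower and 0 higher, against 6.46% and 8.26% of all 24675 tested probes (14.7% in either direction); at an unadjusted p under 0.05, 5 were lower and 0 higher, against 13.5% and 18.9% of all probes. Of the 2, Acaca probe 4 entered the test through WT liver, where 4 of 5 arrays were well above background, against 0 of 5 in sg/sg liver. Among the 13 probes well above background on all 10 liver arrays 1, Thrsp, was lower. Of all 21817 such probes 17.6% were called in either direction. The groups overlapped for every one of the 14, while in 5.52% of all probes the genotypes were separate with sg/sg lower and in 6.74% with sg/sg higher. The median over the 8 genes in liver was -0.75, against 0.05 over all genes. With slide as a fixed block or within slide 2 no lipogenic probe was called in liver (3 and 0 probes called in all by limma, 2012 and 1976 at an unadjusted p under 0.05), and 11 of the 14 differences there were negative. In WAT, slide as a block also called 10 probes, with Fasn probe 1 in place of Acaca probe 1, against 18.8% of all probes. The 10 probes of the first fit had no overlap between genotypes, so a higher sg/sg mean on every slide was already fixed. Only Fasn probe 1 could have differed, and it was 0.27 to 0.67 higher within the 3 slides. In bulk tissue, more cells of a type and more RNA per cell cannot be told apart. Background correction by normexp in WAT moved the median of all probes to 0.49, against 0.08, and called 3 of the 16 probes, where 4.6% of all probes were called in either direction. Under it the 10 probes had log2 differences of 0.69 to 1.74, all above that median. These 10 were picked as higher on the same arrays, so this is not a separate test.

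**Figure D1:**
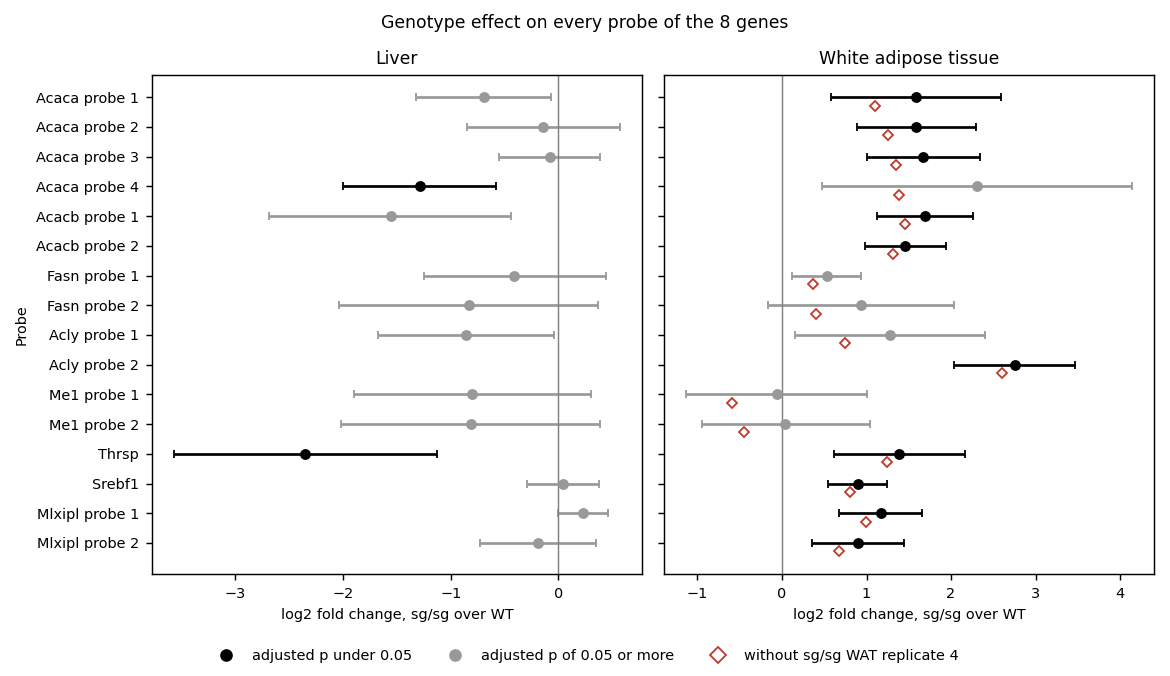
Log2 difference of sg/sg over WT (horizontal axis) for every probe of the 8 genes in liver (left) and WAT (right), with 95% confidence intervals from limma as bars, n = 5 arrays per genotype. Black points passed an adjusted p of 0.05, grey points did not, and red diamonds give the WAT value without sg/sg replicate 4. In WAT the called probes lie between 0.90 and 2.75, and in liver the lowest is Thrsp at -2.35.

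Acly makes cytosolic acetyl-CoA from citrate. Probe 1 (chr11:100586242-100586300, minus strand) had levels of 1.88, 2.72, 2.14, 5.00 and 2.58 in sg/sg WAT, against 1.89, 1.34, 1.81, 1.51 and 1.36 in WT WAT. Sg/sg replicate 1 lay level with the highest WT array, and replicate 4 far above all others. The difference of 1.28 (SE 0.50) did not pass (adjusted p = 0.0973), and without replicate 4 it was 0.75 (SE 0.20, adjusted p = 0.0208). Probe 2 (chr11:100604518-100604577, minus strand) is named from another transcript record. It had levels of -5.16, -4.67, -6.43, -4.68 and -5.38 in sg/sg WAT, against -8.29, -8.21, -7.48, -7.95 and -8.12 in WT WAT, where 1 of 5 arrays was well above background. The groups were more than 1 log2 unit apart, with a difference of 2.75 (SE 0.32, adjusted p = 0.000814), 2.60 without replicate 4, and 1.74 (adjusted p = 0.183) with normexp. In liver probe 1 had levels of 1.45, 1.67, 1.90, 2.41 and 1.28 in sg/sg mice, against 1.75, 3.78, 3.14, 2.10 and 2.25 in WT mice. The groups overlapped, and the difference of -0.86 (SE 0.37) did not pass (adjusted p = 0.137). Probe 2 was not well above background on any liver array.

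Acaca encodes the cytosolic carboxylase, the committed step of the pathway. Its brightest probe, probe 1 (chr11:84470765-84470824, plus strand), had levels of 1.78, 1.43, 2.17, 4.13 and 1.56 in sg/sg WAT, against 0.67, 0.28, 0.88, 0.77 and 0.56 in WT WAT. The groups did not overlap, and replicate 4 was far above the other sg/sg arrays. The difference was 1.58 (SE 0.45, 2.99-fold, adjusted p = 0.0317), and 1.10 (adjusted p = 0.00269) without replicate 4. The call was lost without any 1 of the WT arrays or without sg/sg replicate 3 (1.49 to 1.64, adjusted p = 0.0528 to 0.0636), with slide as a block (1.59, adjusted p = 0.0506) and with normexp (1.37, adjusted p = 0.059). Probe 2 had levels of -2.87, -2.78, -2.73, -1.21 and -3.15 in sg/sg WAT, against -3.97, -4.33, -4.04, -4.09 and -4.24 in WT WAT. Probe 3 had levels of -3.17, -3.32, -3.07, -1.62 and -3.30 in sg/sg WAT, against -4.52, -4.82, -4.42, -4.45 and -4.61 in WT WAT. Both were fully separated by genotype. The difference was 1.59 (SE 0.32, adjusted p = 0.00674) for probe 2 and 1.67 (SE 0.30, adjusted p = 0.00424) for probe 3, and 1.25 and 1.35 without replicate 4; with normexp neither passed (adjusted p = 0.0629 and 0.0641).

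Acaca probe 4, which spans 4001 bases, gave the widest spread. Its levels were -2.98, -3.36, -3.03, 1.39 and -3.50 in sg/sg WAT, against -4.75, -4.77, -4.44, -4.40 and -4.66 in WT WAT. The groups did not overlap, yet the difference of 2.31 (SE 0.83) did not pass (adjusted p = 0.0716). Without replicate 4 it was 1.38 (SE 0.14, adjusted p = 0.000689). In liver the same probe had levels of -5.63, -6.25, -6.76, -6.45 and -6.20 in sg/sg mice, where no array was well above background, against -4.97, -4.41, -4.23, -5.24 and -5.98 in WT mice, where 4 of 5 were. The groups overlapped at WT replicate 5. The measured means were -6.26 in sg/sg and -4.97 in WT liver (adjusted p = 0.0273 for the measured values). With sg/sg values raised to the lowest well-detected signal of their array, the WT mean was 1.08-fold higher. That WT mean includes replicate 5, which was itself not well above background. The call was lost without WT replicate 2, 3 or 4 or sg/sg replicate 3, 4 or 5 (adjusted p = 0.0505 to 0.0608). It was also lost with normexp (-0.14, adjusted p = 0.356) and with no filter on dim probes (adjusted p = 0.062). Neither 1 fit of all 20 arrays (-1.29, adjusted p = 0.203) nor slide as a block (-0.23, adjusted p = 0.932) called it. Within slide 2, with 1 WT array, the difference was -0.23. The other 3 Acaca probes in liver differed by -0.69 (SE 0.28, adjusted p = 0.12), -0.14 (adjusted p = 0.793) and -0.08 (adjusted p = 0.832). Probe 1, the brightest of the 4, had 5 sg/sg livers between -0.77 and -0.42 and WT livers between -0.69 and 0.98, so the sg/sg livers lay within a narrower range at the low end.

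Acacb rose in WAT of sg/sg mice by both probes. It encodes the carboxylase at the outer mitochondrial membrane, whose malonyl-CoA restrains entry of fatty acids into mitochondria. Acacb probe 1 (chr5:113472402-113472462, plus strand) had levels of 3.33, 3.65, 3.29, 4.52 and 3.09 in sg/sg WAT, against 2.23, 1.87, 1.94, 1.48 and 1.91 in WT WAT. Every sg/sg array was above every WT array. The log2 difference was 1.69 (SE 0.26, 3.22-fold, adjusted p = 0.00209), and 1.45 (adjusted p = 0.000965) without sg/sg replicate 4. Acacb probe 2 had levels of -3.94, -3.85, -4.24, -3.42 and -4.54 in sg/sg WAT, against -5.37, -5.12, -5.28, -5.75 and -5.78 in WT WAT, again without overlap. Its difference was 1.46 (SE 0.21, 2.75-fold, adjusted p = 0.00186), 1.31 (adjusted p = 0.00203) without replicate 4, and it lost the call with normexp (1.54, adjusted p = 0.136). Within the 3 slides, Acacb probe 1 differed by 1.28 to 2.0 and probe 2 by 1.39 to 1.69.

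In liver Acacb probe 1 had levels of 0.27, -0.67, 0.15, 1.47 and -0.30 in sg/sg mice, against 0.46, 2.61, 2.90, 1.08 and 1.68 in WT mice. WT replicates 2 and 3 were the highest, and the groups overlapped. The difference of -1.56 (SE 0.51) did not pass (adjusted p = 0.0627). It passed without WT replicate 1 (-1.89, adjusted p = 0.0366), without sg/sg replicate 4 (-1.89, adjusted p = 0.0393) and with normexp (-1.47, adjusted p = 0.0417). It also passed in 1 fit of all 20 arrays (-1.56, adjusted p = 0.021). Within slide 2, with 1 WT array, the difference was -1.76. Acacb probe 2 was well above background on 0 of 5 sg/sg and 3 of 5 WT liver arrays and was not tested. Its measured means were -6.39 in sg/sg and -4.93 in WT liver. With the sg/sg values floored, the WT mean was 1.11-fold higher. Flooring sets the WT mean against the lowest well-detected signal of each sg/sg array, or against the dim probe itself where that was higher. It keeps the measured values of WT arrays that were not well above background, so where there are such arrays the ratio is not a strict lower bound.

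Fasn carries out chain building. Probe 1 (chr11:120916191-120916250, minus strand) had levels of 7.72, 7.96, 7.72, 8.54 and 7.66 in sg/sg WAT, against 7.66, 7.04, 7.49, 7.35 and 7.42 in WT WAT. The lowest sg/sg array met the highest WT array, and the difference of 0.53 (SE 0.18, 95% interval 0.12 to 0.94) did not pass (adjusted p = 0.066). With slide as a block it was 0.51 and passed (adjusted p = 0.0449). The median intensity of probe 1 before scaling was 429000 in sg/sg and 392000 in WT WAT, and compression of so bright a signal was not tested. Probe 2 had 2.85 to 5.85 in sg/sg WAT, with replicate 4 at 5.85 and the next array at 3.39, against 2.46 to 3.09 in WT WAT. Its difference was 0.94 (SE 0.49, adjusted p = 0.206). Without replicate 4 the 2 probes differed by 0.37 (adjusted p = 0.0539) and 0.40 (adjusted p = 0.0784). In liver Fasn probe 1 had levels of 6.63, 6.28, 7.23, 7.73 and 6.64 in sg/sg mice, against 6.37, 8.32, 7.90, 6.99 and 6.97 in WT mice. Both genotypes spread over more than 1 log2 unit and overlapped. The difference was -0.41 (95% interval -1.25 to 0.44, adjusted p = 0.492), and that of probe 2 was -0.83 (95% interval -2.04 to 0.37, adjusted p = 0.314).

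Me1 did not pass in WAT, and without 1 array it was lower. Probe 1 (chr9:86685035-86685095, minus strand) had levels of 3.65, 3.84, 3.85, 6.43 and 3.77 in sg/sg WAT, against 4.51, 4.36, 4.5, 4.39 and 4.06 in WT WAT. Replicate 4 lay above every WT array and the other 4 sg/sg arrays lay below every WT array. Over all 10 arrays the difference was -0.06 (SE 0.48, adjusted p = 0.95). Without replicate 4 it was -0.59 (SE 0.10, adjusted p = 0.00434), and all 9 arrays were then separated by genotype. Probe 2 (chr9:86689778-86689837, minus strand) had 2.99, 3.11, 3.16, 5.50 and 2.94 in sg/sg WAT, against 3.60, 3.37, 3.68, 3.59 and 3.22 in WT WAT. The same 4 arrays lay below every WT array. Its difference was 0.04 (SE 0.45, adjusted p = 0.96), and -0.45 (SE 0.11, adjusted p = 0.0154) without replicate 4. With quantile normalisation the difference of probe 2 was -0.03. On slide 4, which holds that array, the differences were 0.62 and 0.66, and on the other two slides they ran from -0.72 to -0.18. In liver Me1 probe 1 had levels of 1.66, 0.33, 1.94, 2.0 and 1.60 in sg/sg mice, against 0.87, 3.89, 2.48, 2.16 and 2.14 in WT mice. The groups overlapped, with differences of -0.80 (adjusted p = 0.292) and -0.81 (adjusted p = 0.328) for the 2 probes.

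**Figure D2:**
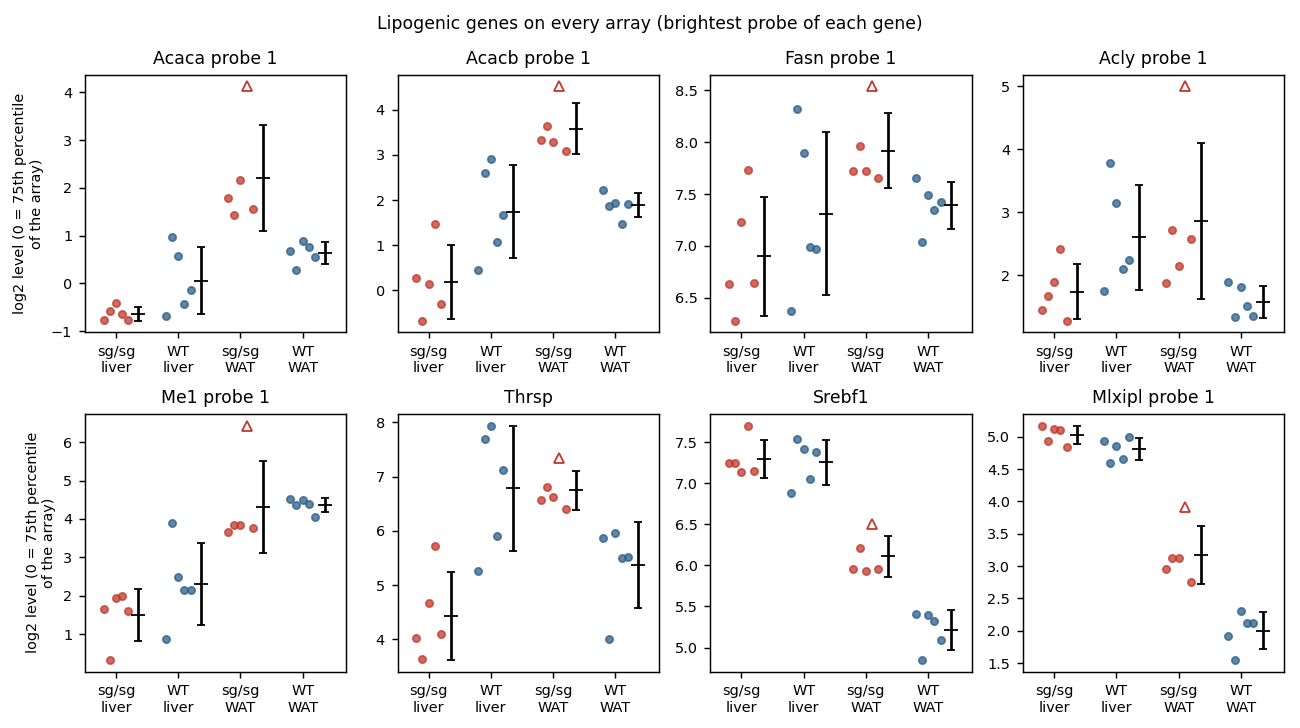
Log2 level of the brightest probe of each gene (vertical axis, 0 = 75th percentile of the array) on every array, with sg/sg in red and WT in blue, liver on the left and WAT on the right of each panel. Black bars give the mean and SD of 5 arrays, and the open triangle is sg/sg WAT replicate 4. Thrsp is lower in sg/sg than in WT liver and higher in sg/sg than in WT WAT, and in the Me1 panel 4 of 5 sg/sg WAT arrays lie below all 5 WT arrays.

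Thrsp was called in both tissues, in opposite directions. In liver its levels were 4.03, 3.63, 4.66, 5.72 and 4.10 in sg/sg mice, against 5.25, 7.69, 7.93, 5.90 and 7.13 in WT mice. Only sg/sg replicate 4 reached above a WT liver, WT replicate 1. The difference was -2.35 (SE 0.55, 5.1-fold lower, adjusted p = 0.0232), the largest of any lipogenic probe in liver. It missed the threshold without WT replicate 2 (-2.12, adjusted p = 0.0502), without WT replicate 3 (-2.06, adjusted p = 0.0551) and with no filter on dim probes (adjusted p = 0.0542). With slide as a block it was -3.02 (SE 1.06, adjusted p = 0.54), and within slide 2 the same value had an adjusted p of 0.377. In WAT the levels were 6.56, 6.81, 6.62, 7.34 and 6.40 in sg/sg mice, against 5.86, 4.0, 5.96, 5.49 and 5.51 in WT mice. No WT array reached an sg/sg array, and WT replicate 2 was the lowest by more than 1 log2 unit. The difference was 1.38 (SE 0.35, 2.61-fold, adjusted p = 0.0195). It was 1.24 (adjusted p = 0.0323) without sg/sg replicate 4, 1.04 (adjusted p = 0.00729) without WT replicate 2, and 1.18 (adjusted p = 0.079) with normexp, and 1.01 to 1.82 within the 3 slides.

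Both transcription factor genes were higher in sg/sg WAT, and neither passed in liver. Srebf1 (chr11:60281270-60281329, minus strand), whose probe does not separate the SREBP-1a and SREBP-1c transcripts by name, had levels of 5.95, 6.21, 5.93, 6.50 and 5.96 in sg/sg WAT, against 5.41, 4.85, 5.40, 5.32 and 5.09 in WT WAT. Every sg/sg array was above every WT array, by 0.90 on average (SE 0.15, 1.86-fold, adjusted p = 0.00349), and by 0.80 (adjusted p = 0.00342) without replicate 4. The 3 slides gave 0.85 to 0.95. In liver Srebf1 had levels of 7.25, 7.25, 7.13, 7.70 and 7.15 in sg/sg mice, against 6.88, 7.54, 7.41, 7.05 and 7.38 in WT mice. The groups overlapped throughout, with a difference of 0.04 (95% interval -0.29 to 0.38, adjusted p = 0.864) that became -0.06 with median or quantile scaling.

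Mlxipl probe 1 (chr5:134108915-134108974, plus strand) had levels of 2.96, 3.12, 3.12, 3.92 and 2.75 in sg/sg WAT, against 1.92, 1.55, 2.31, 2.12 and 2.12 in WT WAT. The groups were separate, and the difference was 1.17 (SE 0.22, 2.25-fold, adjusted p = 0.00509), or 0.99 (adjusted p = 0.00284) without replicate 4. Probe 2, which starts 250 bases further along the same strand, had levels of -0.53, -0.80, -0.51, 0.41 and -0.95 in sg/sg WAT, against -1.47, -1.80, -1.22, -1.18 and -1.19 in WT WAT. They were also separate, with a difference of 0.90 (SE 0.24, adjusted p = 0.0266), and 0.67 (adjusted p = 0.0123) without replicate 4. Probe 2 lost the call without WT replicate 1 (adjusted p = 0.0602), WT replicate 2 (adjusted p = 0.0552) or sg/sg replicate 3 (adjusted p = 0.0529), with median scaling (adjusted p = 0.0531) and with normexp (adjusted p = 0.0558). In liver probe 1 had levels of 5.16, 4.93, 5.12, 5.11 and 4.84 in sg/sg mice, against 4.93, 4.6, 4.85, 4.66 and 5.00 in WT mice. These ranges were narrow and overlapped. The difference was 0.23 (SE 0.10, adjusted p = 0.16), and that of probe 2 was -0.19 (SE 0.24, adjusted p = 0.625).

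The genotype effect was also compared between the tissues, as the WAT difference minus the liver difference in 1 limma fit of all 20 arrays. The fit took the arrays as independent. If 5 mice of each genotype is the total, liver and WAT arrays share mice. The p-values of this fit then do not simply measure the spread between mice. With same-numbered arrays of a genotype as a random block, 10 probes were called as well, against 19.6% of all probes. That alternative was chosen after seeing the data, and whether the numbers mark the mice is not stated. Of 14 probes tested, 10 were positive and past the threshold, against 10.4% of all 24344 probes tested (19.8% in either direction). They were all 4 probes of Acaca (1.73 to 3.60), Acacb probe 1, Acly probe 1, Thrsp, Srebf1 and both probes of Mlxipl. Thrsp had a difference of 3.74 (SE 0.69, adjusted p = 0.000915), and Acacb probe 1 gave 3.25 (SE 0.6, adjusted p = 0.000926). The 3.60 of Acaca probe 4 rests on sg/sg liver values that were not well above background. Among the 13 probes well above background on all 20 arrays 9 passed, where 21.6% of all 21278 such probes passed in either direction. Acly probe 1 gave 2.14 (adjusted p = 0.0269), Mlxipl 0.94 (adjusted p = 0.0115) and 1.08 (adjusted p = 0.0383), and Srebf1 0.85 (SE 0.22, adjusted p = 0.0106). Fasn, at 0.93 (adjusted p = 0.148) and 1.77 (adjusted p = 0.113), and Me1, at 0.74 (adjusted p = 0.507) and 0.86 (adjusted p = 0.445), did not pass. Without sg/sg WAT replicate 4 the same 10 probes passed, where 25.7% of all probes were called. Thrsp was then at 3.59, Acacb probe 1 at 3.02 and Acaca probe 4 at 2.67. Acly probe 1 missed without WT liver replicate 3 (2.01, adjusted p = 0.0512). With normexp Srebf1 (0.64, adjusted p = 0.0539), Acaca probe 4 (adjusted p = 0.0691) and Mlxipl probe 2 (0.96, adjusted p = 0.0617) missed. Mlxipl probe 2 missed without WT liver replicate 1, 3, 4 or 5, sg/sg liver replicate 4 or 5, WT WAT replicate 1 or 2, or sg/sg WAT replicate 1 or 3 (adjusted p = 0.0511 to 0.0728). With slide as a block within each tissue 1 probe was called, that of Thrsp, where 3.23% of all probes were called.

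Levels also differed between the tissues themselves, which lay on separate slides, so tissue and slide cannot be told apart and no test was made. By its brightest probe Srebf1 averaged 7.30 ± 0.23 in sg/sg liver, 7.25 ± 0.27 in WT liver, 6.11 ± 0.25 in sg/sg WAT and 5.21 ± 0.24 in WT WAT (SD, n = 5 each). Mlxipl averaged 5.03 ± 0.14 in sg/sg liver, 4.81 ± 0.17 in WT liver, 3.18 ± 0.44 in sg/sg WAT and 2.0 ± 0.29 in WT WAT (SD, n = 5 each). On these scaled levels, the liver groups overlapped each other for both factors and lay above sg/sg WAT, which lay above WT WAT. Before scaling Srebf1 in sg/sg WAT (122000 to 128000) lay within both liver ranges (91600 to 136000 in sg/sg, 104000 to 202000 in WT). Mlxipl probe 1 in sg/sg WAT (13900 to 20300) then overlapped sg/sg liver (18500 to 31200) but not WT liver (25600 to 26800). On scaled levels the carboxylases differed from the factors, with sg/sg WAT highest and separate from the next group, WT WAT, which overlapped WT liver. Me1 averaged 4.31 ± 1.19 in sg/sg WAT and 4.37 ± 0.18 in WT WAT, against 1.51 ± 0.68 in sg/sg liver and 2.31 ± 1.08 in WT liver (SD, n = 5 each). Thrsp averaged 6.75 ± 0.36 in sg/sg WAT and 5.36 ± 0.79 in WT WAT, against 4.43 ± 0.81 in sg/sg liver and 6.78 ± 1.16 in WT liver, and was the only one of the 8 genes with its highest mean in WT liver (SD, n = 5 each).

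Arrays of 1 genotype varied together in these genes, and array and mouse cannot be told apart. The r of other gene sets is not given, so the values below have no background beside them. Each gene's deviations from its genotype mean were compared with the mean deviation of the other 7 genes, over 10 arrays of a tissue, values that share the array and its scaling. In liver Pearson's r lay between 0.70 and 0.96 for 7 genes, and was -0.14 for Mlxipl. Thrsp and Acacb were at 0.96 and Fasn at 0.95. After leaving out the 2 arrays farthest from the median r was 0.96 for Thrsp, 0.96 for Acacb, 0.90 for Fasn, 0.56 for Me1 and 0.13 for Mlxipl. Among sg/sg livers replicate 4 had the highest mean standardised deviation, 1.02, and replicate 2 the lowest, -0.65. Among WT livers replicates 2 and 3 were the high ones, at 1.12 and 0.79, and replicates 1 and 4 the low ones, at -1.21 and -0.72. WT Fasn probe 1 thus spanned 6.37 to 8.32 within 1 genotype, a wider gap than its genotype difference.

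In WAT 1 array stood above the rest. Sg/sg replicate 4 had a mean standardised deviation of 2.12, and all other WAT arrays lay between -0.91 and 0.49. Against the mean of the other 4 sg/sg arrays its level was 24.5-fold for Acaca probe 4, 6.35-fold for Fasn probe 2, 6.34-fold for Acly probe 1, 6.27-fold for Me1 probe 1 and 5.25-fold for Acaca probe 1. Between 0.0155% and 0.269% of all tested WAT probes reached ratios as high. Its level was 1.67-fold for Thrsp, 1.71-fold for Fasn probe 1 and 1.41-fold for Srebf1, ratios reached by 10.5%, 9.68% and 19.1% of all tested probes. Before scaling Srebf1 read 122000 on this array, and the 5 sg/sg WAT arrays ran from 122000 to 128000. The probes of 1 gene differed in this array, as with Fasn at 1.71-fold and 6.35-fold, and with Acaca at 3.03-fold to 24.5-fold. The median intensity before scaling in sg/sg WAT was 429000 for Fasn probe 1 and 18400 for Fasn probe 2. Whether so bright a signal is compressed was not tested. With the 2 arrays farthest from the median left out, r between each gene and the others lay between 0.57 and 0.91 in WAT. The deviations were still from genotype means that include replicate 4, which left the other 4 sg/sg arrays at -0.80 to -0.14. The genes share that offset, so this r does not show whether they vary together without replicate 4.

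**Figure D3:**
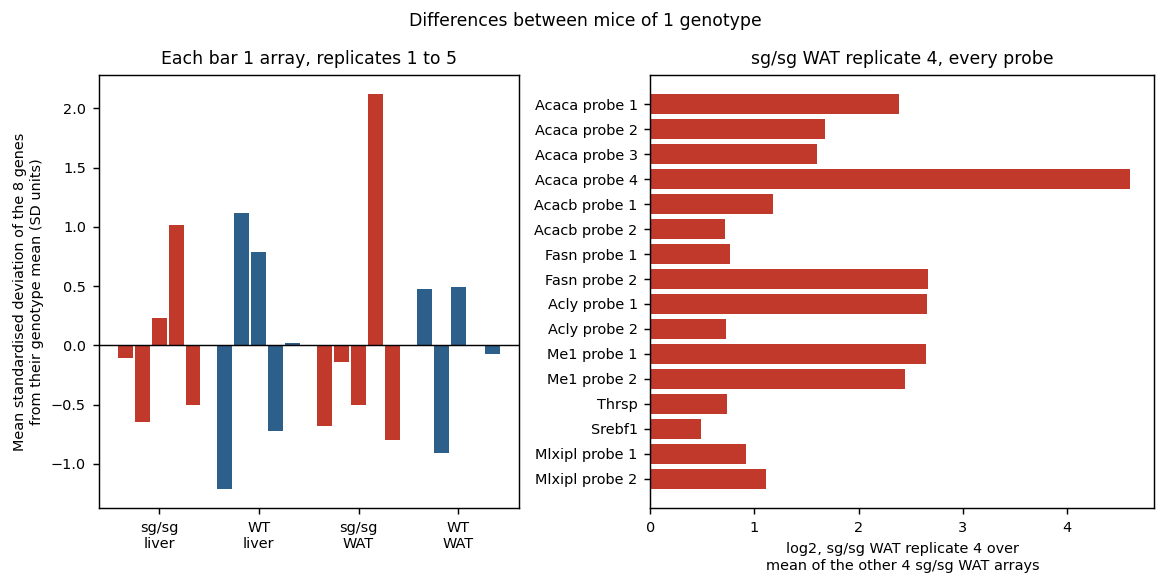
Left, the mean standardised deviation of the 8 genes from their genotype mean on each array, in SD units, with sg/sg in red and WT in blue and replicates 1 to 5 in order. Right, the log2 ratio of sg/sg WAT replicate 4 to the mean of the other 4 sg/sg WAT arrays for every probe. The bar of sg/sg WAT replicate 4 reaches 2.12, and the ratios run from 1.41-fold for Srebf1 to 24.5-fold for Acaca probe 4.

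Outside the 8 genes, the genes whose deviations were most like the mean of the 8 were named, with n = 10 arrays. In liver these were Zbtb32 (r = 0.977), Lpcat3 (r = 0.949), Agtrap (r = 0.940), Inava (r = 0.920) and the fatty acid elongase Elovl6 (r = 0.919), and r without the 2 farthest arrays was 0.861 to 0.968. In WAT they were Romo1 (r = 0.997), the pyruvate carboxylase gene Pcx (r = 0.996), Txn2, Szrd1 and the pentose phosphate enzyme Taldo1 (r = 0.994 each). Without the 2 farthest arrays r was 0.977 to 0.989. These WAT deviations were also from means that include sg/sg replicate 4, so likeness without that array is not shown.

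The pathway around the 8 genes was read from 6 further lists, each gene by its brightest probe. Genes that supply acetyl-CoA and NADPH had 1 of 11 higher and 0 lower in liver, against 8.85% and 6.71% of all genes, and 2 higher and 0 lower in WAT, against 13.8% and 9.34%. The liver gene was G6pdx, the entry of the pentose phosphate pathway, at 0.38 (SE 0.11, adjusted p = 0.0413). In WAT the pentose phosphate enzymes Tkt, at 0.73 (SE 0.21, adjusted p = 0.0334), and H6pd, at 0.60 (SE 0.15, adjusted p = 0.0206), were higher. Without sg/sg WAT replicate 4 this list had 3 higher, Tkt, H6pd and Pcx, and 3 lower, against 18.6% and 12.6% of all genes. The 3 lower genes were the citrate carrier Slc25a1 at -0.42, the acetate-activating Acss2 at -0.76 and Pgd at -0.37, of which Pgd, like Me1, makes NADPH. Its median was -0.18 in liver, 0.31 in WAT and 0.16 in WAT without that array.

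Genes of the SREBP and LXR system, which process or induce SREBP-1, had 2 higher and 1 lower of 14 in liver (median 0.06), against 8.85% and 6.71% of all genes. They had 2 higher and 0 lower in WAT (median 0.13), against 13.8% and 9.34%. The LXR genes Nr1h3 and Nr1h2 were both 0.36 higher in sg/sg liver (adjusted p = 0.0249 and 0.0157), and Lpin1, a phosphatidate phosphatase and coregulator, was lower there at -1.38 (SE 0.41, adjusted p = 0.0478). Lpin1 was higher in WAT at 0.53 (SE 0.14, adjusted p = 0.0269), as was the SREBP protease gene Mbtps1 at 0.30 (adjusted p = 0.0483). Without replicate 4 this list had 3 higher and 2 lower in WAT, against 18.6% and 12.6% of all genes. The lower ones were Insig1, which retains SREBP in the endoplasmic reticulum, at -0.68 (adjusted p = 0.00833), and Usf2 at -0.31.

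Genes of the ChREBP partner Mlx and of ChREBP targets had 0 higher and 1 lower of 14 in liver (median -0.18), against 8.85% and 6.71% of all genes. They had 5 higher and 1 lower in WAT (median 0.32), against 13.8% and 9.34%. The liver gene was Txnip at -0.59 (SE 0.16, adjusted p = 0.0333), while the glycolytic Pklr, at -1.23 (SE 0.40), did not pass (adjusted p = 0.0611). In WAT the lipase-family gene Pnpla3 was at 1.61 (SE 0.28, adjusted p = 0.00344), the insulin-responsive glucose transporter Slc2a4 at 1.29 (SE 0.29, adjusted p = 0.0114), G6pc at 0.96 (adjusted p = 0.0245), ketohexokinase, Khk, at 0.66 (adjusted p = 0.00612) and Tkfc at 0.34 (adjusted p = 0.041). The glucose transporter Slc2a2 was lower at -0.88 (adjusted p = 0.042). Without replicate 4 the counts in WAT were 5 higher and 0 lower, against 18.6% and 12.6% of all genes.

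Genes that control acetyl-CoA carboxylase or respond to its product had 0 higher and 3 lower of 14 in liver (median -0.13), against 8.85% and 6.71% of all genes. They had 4 higher and 2 lower in WAT (median 0.10), against 13.8% and 9.34%. Mid1ip1, a relative of Thrsp that promotes carboxylase polymers, was 1.64 higher in sg/sg WAT (SE 0.17, adjusted p = 0.000663). Also higher in WAT were Prkaa1, a catalytic subunit of the AMP-activated kinase that inhibits the carboxylases, at 0.81 (SE 0.10, adjusted p = 0.00122), its regulatory subunit Prkag2 at 0.60 (adjusted p = 0.0405) and malonyl-CoA decarboxylase, Mlycd, at 0.42 (adjusted p = 0.0111). Cpt1a, the malonyl-CoA-sensitive entry of fatty acids into mitochondria, was lower in both tissues, at -0.89 (SE 0.16, adjusted p = 0.00391) in WAT and -0.51 (SE 0.12, adjusted p = 0.0233) in liver. Brca1, whose product can bind the inactive carboxylase, was at -2.53 (SE 0.33, adjusted p = 0.00125) in WAT. In liver Trib3, at -1.83 (SE 0.33, adjusted p = 0.0109), and the kinase subunit Prkaa2, at -0.39 (adjusted p = 0.0328), were lower. Without replicate 4 the list had 5 higher and 2 lower in WAT, against 18.6% and 12.6% of all genes.

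Elongation, desaturation and esterification had 1 higher and 1 lower of 10 in liver (median -0.36), against 8.85% and 6.71% of all genes. They had 2 higher and 0 lower in WAT (median 0.28), against 13.8% and 9.34%. The elongase Elovl5 was at -1.04 (SE 0.25, adjusted p = 0.0239) and the desaturase Scd2 at 0.35 (adjusted p = 0.0289) in liver. The desaturase Fads1, at 0.88 (SE 0.16, adjusted p = 0.00487), and the glycerol-phosphate acyltransferase Gpam, at 0.75 (SE 0.17, adjusted p = 0.011), were higher in WAT. Without replicate 4 the counts in WAT were 3 higher and 1 lower, against 18.6% and 12.6% of all genes. The lower one was Scd2 at -1.0 (adjusted p = 0.0102). Thyroid hormone receptors and their cofactors, the system to which Thrsp responds, had 2 higher and 0 lower of 9 in WAT (median 0.33), against 13.8% and 9.34% of all genes. The higher genes were both receptors, Thra at 0.60 (SE 0.13, adjusted p = 0.00945) and Thrb at 0.96 (SE 0.26, adjusted p = 0.0247). Without replicate 4 the WAT counts were 4 higher and 0 lower, against 18.6% and 12.6%.

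**Figure D4:**
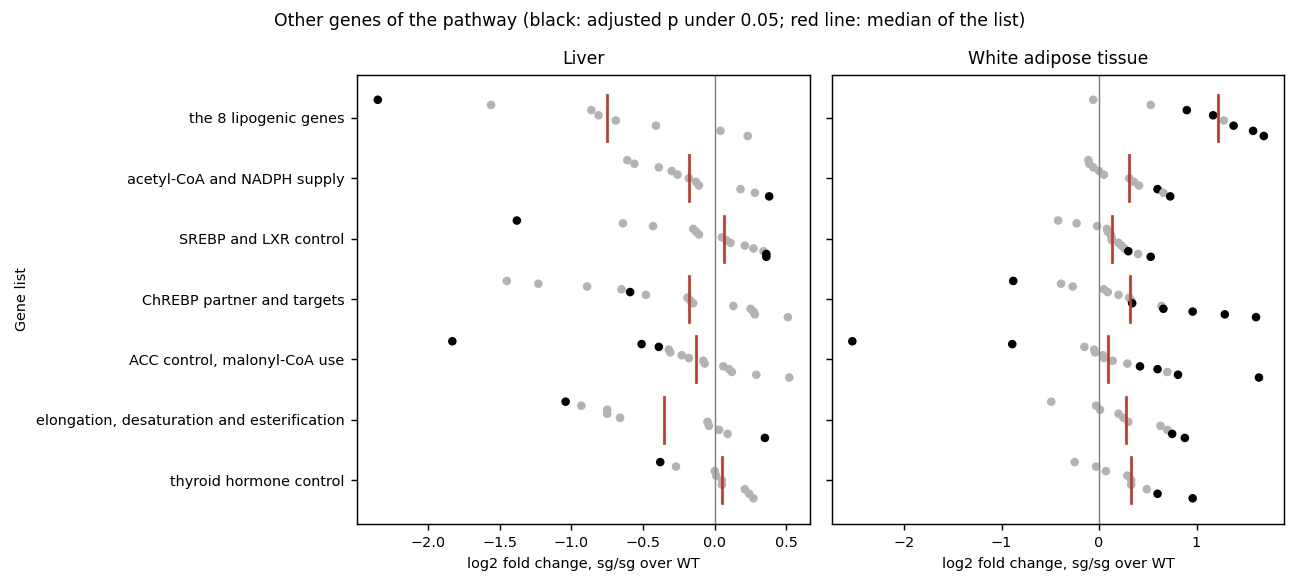
Log2 difference of sg/sg over WT (horizontal axis) for the brightest probe of each gene, by gene list, in liver (left) and WAT (right). Black points passed an adjusted p of 0.05, grey points did not, and the red line is the median of the list. The median of the 8 lipogenic genes is -0.75 in liver and 1.23 in WAT, and the other 6 lists have medians of -0.36 to 0.06 in liver and 0.10 to 0.33 in WAT.

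Some markers of cell types moved with genotype as well, and their part in the results on the 8 genes was not tested. Shares of all genes to set beside the counts were 13.8% higher and 9.34% lower in WAT, and 18.6% and 12.6% without sg/sg replicate 4. In liver they were 8.85% and 6.71%. In WAT 6 of 13 adipocyte genes were higher and 1, Lep, lower. Their summed level, per 75th percentile of the array, ran from 1080 to 1550 in sg/sg WAT, against 646 to 991 in WT WAT. The highest sum was in sg/sg replicate 4, whose percentile was the lowest in WAT (1346). The lowest was in WT replicate 2, whose percentile was the highest (2604). Before scaling Fabp4 was at 485000 to 508000 in sg/sg and 503000 to 520000 in WT WAT. Cfd was at 335000 to 357000 against 140000 to 311000. Plin1, which coats fat droplets, was at 0.66 (adjusted p = 0.00866) and Pparg, the master regulator of fat cells, at 0.86 (adjusted p = 0.00332). Macrophage genes had 9 of 13 lower and 1 higher, with sums of 147 to 192 in sg/sg WAT, against 184 to 261 in WT WAT. Fibroblast and matrix genes had 5 of 7 lower. Muscle genes had 1 of 8 higher and 0 lower (median 0.15). The higher one was Myh1 at 0.90 (adjusted p = 0.00987), while Myh4 was at -0.84 (adjusted p = 0.155) and Ckm was well above background on 6 of the 10 arrays. Their sums, 17.7 to 22.1 in sg/sg WAT against 6.64 to 13.5 in WT WAT, came mostly from Myl1 and Acta1. With all 10 arrays neither Myl1 nor Acta1 passed. Before scaling Myl1 was at 17600 to 21400 in sg/sg and 13200 to 20700 in WT WAT, and Acta1 at 2310 to 21200 and 3100 to 9280. Brown fat genes had 1 of 5 higher, Cidea at 1.31 (adjusted p = 0.00263), and a sum of 25.3 in sg/sg replicate 4, and 6.69 to 11 in the other sg/sg arrays, against 5.01 to 6.86 in WT WAT. Of 8 hepatocyte genes measured in WAT, 0 passed, with sums of 1.13 to 5.19 in sg/sg WAT, against 0.374 to 7.6 in WT WAT. Without sg/sg replicate 4 the adipocyte list had 6 higher and 1 lower and the macrophage list 1 higher and 8 lower. The fibroblast list then had 5 lower and the hepatocyte list 0. The muscle list had 2 higher, Myh1 at 0.92 (adjusted p = 0.0126) and Acta1 at 1.93 (adjusted p = 0.0053). The brown fat list had 1 higher and 2 lower, Elovl3 at -2.63 (adjusted p = 0.0409) and Dio2 at -1.03 (adjusted p = 0.0282).

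In liver 3 of 9 hepatocyte genes were higher, against 8.85% of all genes. Their sums, per 75th percentile of the array, were 3060 to 3310 in sg/sg liver, against 2130 to 2910 in WT liver. That percentile lay between 646 and 898 in sg/sg and between 818 and 1089 in WT liver. Before scaling Alb was at 644000 to 693000 in sg/sg and 630000 to 652000 in WT liver. Tat was at 88400 to 191000 against 90000 to 102000. Macrophage genes had 4 of 12 higher, with sums of 114 to 144 in sg/sg liver, against 71.3 to 119 in WT liver, and endothelial genes 3 of 8 higher. Among adipocyte genes 1 of 7 measured was lower, Cfd at -6.32 (SE 0.85, adjusted p = 0.00444), with sums of 114 to 186 in sg/sg liver, against 154 to 220 in WT liver. Of the genes that define fat cells Lep and Plin1 were well above background on 0 of the 10 liver arrays, and Adipoq on 1. Brown fat genes had 1 of 4 measured higher, Ucp1 (adjusted p = 0.0194), which was well above background on 4 sg/sg arrays and 0 WT arrays, and 1 lower, Cidea at -5.43 (adjusted p = 0.00757). Exocrine pancreas genes had 2 of 3 measured higher, Cela2a at 2.62 and Ctrc at 2.42, with sums of 0.941 to 2.28 in sg/sg liver, against 0.366 to 0.602 in WT liver.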

How the data were processed

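RNA of 10 liver and 10 WAT samples was measured on 1-colour Agilent arrays. The deposited intensity values were made with Agilent Feature Extraction 9.5, per the submitters' processing notes. The authors' deposited value table held the same processed signals as the scanner files, with a largest relative difference of 0. The processed signal of each spot was averaged per probe, divided by the 75th percentile of its array and taken to log2 values, computed here from the deposited signals. Control spots were left out. Tested probes were those well above background on 4 or more of the 10 arrays of a tissue with no more than 2 missing values. No lipogenic spot was saturated or an outlier. The number of arrays limits the precision.

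Genotypes were compared per tissue with limma 3.58.1 in R 4.3.3 (lmFit, eBayes) over all tested probes with Benjamini-Hochberg adjustment, and the difference between tissues in 1 fit of all 20 arrays. All adjusted p-values are from limma. Symbols were updated through RefSeq accessions or synonyms where these matched, which is how Mod1 became Me1. On simulated arrays the liver fit of 24675 probes recovered 82 of 100 changes of 1 log2 unit, and the WAT fit of 32315 probes 58 of 100.

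Genes named were every probe of the 8 genes, up to 4 genes per list and tissue with the smallest p, and the 5 genes most like the 8 per tissue. Other genes that passed in a list were named after their values were seen. The members and lists were chosen with earlier results of these data known. Alternatives were median and quantile scaling, normexp with an offset of 50, other filters, 1 probe per gene, trended variances, slide and replicate blocks, single slides and leaving out each array. The counts of lists and of separate groups without sg/sg WAT replicate 4, and the block of same-numbered liver and WAT arrays, were added after seeing the data. The liver result of 1 list, thyroid hormone control, is not reported here.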

Additional observations from a re-analysis of the deposited data

Results flagged for a closer look

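Of 60 groups of 5 arrays examined for the lipogenic probes, 11 held an array far from the other 4. Chance gives about 1 in 20 for independent groups, but these probes were read on the same arrays. The share of all probes flagged in this way is not given, so the count cannot be read as a trait of the lipogenic genes. Most such values were of 1 array, sg/sg WAT replicate 4. Its level was 4.13 for Acaca probe 1, -1.21 for probe 2, -1.62 for probe 3 and 1.39 for probe 4. It was 5.85 for Fasn probe 2, 5.00 for Acly probe 1, 6.43 for Me1 probe 1 and 5.50 for Me1 probe 2. The other 3 were Me1 probe 1 at 0.33 in sg/sg liver replicate 2, Srebf1 at 7.70 in sg/sg liver replicate 4 and Thrsp at 4.0 in WT WAT replicate 2.

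The genotype effect differed between tissues, by a limma test of the WAT difference minus the liver difference, for 10 probes. The values were 2.27, 1.73, 1.74 and 3.60 for the 4 Acaca probes, 3.25 for Acacb probe 1 and 2.14 for Acly probe 1. They were 3.74 for Thrsp, 0.85 for Srebf1, and 0.94 and 1.08 for the 2 Mlxipl probes. Thrsp was the gene called in both tissues, lower in sg/sg liver and higher in sg/sg WAT.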

How the results depend on the processing

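In liver, 2 lipogenic probes were called in the reported fit. The count was 0 with no filter on dim probes, with slide as a fixed block, within slide 2 and with the replicate number as a block, where limma called 0 of the 14 probes but 1662 probes in all, and 12536, 2012, 1976 and 7195 probes in all had an unadjusted p under 0.05. It was 1 with probes well above background on all arrays (17.6% of all probes called) and 1 with 1 probe per gene (16.7%). Leaving out each array gave 0 to 3, where 4.81% to 16.7% of all probes were called. In WAT, 10 were called (21.9% of all probes), against 3 with normexp (4.6%) and 5 with 1 probe per gene (8 tested, 24%). Within slide 4, 0 were called, with 4786 probes in all at an unadjusted p under 0.05. Slides 5 and 6 leave 1 array in a group, so only their differences are given. Leaving out each array gave 8 to 14, where 15.5% to 31% of all probes were called. The 14 and the 31% came without sg/sg replicate 4. For the difference between tissues, 10 were called (19.8% of all probes). The count was 6 with 1 probe per gene (8 tested, 21.7%) and 1 with slide as a fixed block (3.23%). It was 8 to 10 when each array was left out, where 16.2% to 25.7% of all probes were called. Other settings kept the counts within 1.5 times. With normexp and in 1 fit of all 20 arrays the 2 called liver probes were Thrsp and Acacb probe 1. In WAT the fit of all 20 arrays also called Acaca probe 4 (2.31, adjusted p = 0.0158).

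The replicate numbers did not pair the arrays: correlations of same-numbered deviations between genotypes were -0.11 to 0.17 in liver and -0.14 to 0.09 in WAT, and between liver and WAT of a genotype -0.10 to 0.17, which does not settle whether they share a mouse. With the replicate number as a block, 10 probes were called in WAT (13.9% of all probes) and 10 for the difference between tissues (16.5%).

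Direction turned for 5 probes, none of them called in that tissue, and the cause was not tested. In liver Srebf1 (0.04) was -0.06 with median scaling, -0.06 with quantile normalisation, -0.17 with slide as a block, -0.17 within slide 2, and -0.06 to 0.12 when each array was left out, turning without WT replicate 1 or 4 or sg/sg replicate 4. Acaca probe 2 was 0.07 with normexp and -0.40 to 0.01 when each array was left out, turning without WT replicate 5. Acaca probe 3 was 0.06 with normexp, 0.26 with slide as a block, 0.26 within slide 2, and -0.25 to 0.05 when each array was left out, turning without WT replicate 2 or 3. In WAT Me1 probe 1 was 0.62 within slide 4 and -0.59 to 0.10 when each array was left out, turning without sg/sg replicate 1, 2, 3 or 5. Me1 probe 2 was -0.03 with quantile normalisation, -0.15 with normexp, -0.18 within slide 5, -0.49 within slide 6, and -0.45 to 0.19 when each array was left out, turning without WT replicate 5 or sg/sg replicate 4.

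Probes not well above background on any array of a group were Rora probe 3, Acaca probe 4 and Acacb probe 2 in sg/sg liver and Acly probe 2 in liver. Their levels there are not well measured.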
